A study of Rattus norvegicus with 8 samples.

Results

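Adventitial fibroblasts are the resident mesenchymal cells of the outer vessel wall. They make and maintain the connective tissue around the media, and after injury they can become myofibroblasts. In the resting state they carry a recognisable set of transcripts besides collagens and proteoglycans, and 8 of these genes were followed here, taken by name: Pi16, Dpt, Cd34, Clec3b, Scara5, Gsn, Thy1 and Pcolce2. All 8 were found among the 32623 listed genes, each with 1 Ensembl identifier, and Pcolce2 is listed there in capitals. All 8 also reached the minimum base mean of 100 normalized counts that the study set for testing, so no member was lost to the filter.

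RNA was sequenced from the epigastric outflow vein of 8 Sprague Dawley rats, 21 days after the vein had been joined to the femoral artery to form an arteriovenous fistula (AVF). In 4 rats (BAPN 1 to 4, with 3 females and 1 male, BAPN 4) the vein was wrapped at surgery in a nanofiber scaffold that released β-aminopropionitrile (BAPN), an irreversible inhibitor of lysyl oxidases, the enzymes that start the crosslinking of collagen and elastin. In the other 4 rats (Vehicle 1 to 4, with females 1 and 2 and males 3 and 4) the scaffold carried no drug. Every vein therefore had a fistula and a wrap, and the comparison asks what periadventitial release of BAPN changed.

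The deposited counts came to between 45039451 and 52241007 per library with BAPN and between 19548203 and 22442050 with vehicle, so depth separated the groups and cannot be told apart from treatment. Levels are given as CPM, counts scaled to a common library size after TMM normalization, and group means as mean ± SD over n = 4 rats, with the BAPN group first. Log2 fold changes are negative where BAPN was lower, and a gene was called at a Benjamini-Hochberg false discovery rate (FDR) below 0.05 in edgeR's quasi-likelihood test over 11682 genes. Of these, 16.8% were called, 9.25% with lower and 7.5% with higher expression in BAPN-treated veins. Since whole vein was used, fewer cells of a type and less RNA per cell cannot be told apart, and no signal can be placed in the adventitia. The pan-fibroblast receptor gene Pdgfra lay between 113 and 295 CPM in the 8 rats, whereas Cd248, another fibroblast surface marker, had 0 counts in every library and Tcf21, a fibroblast transcription factor, reached at most 0.513 CPM. Transcript lengths were not used here, so CPM of different genes does not give their relative transcript numbers. Sums of CPM over a list are shares of the counts only.

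RefSeq promoter windows of assembly GRCr8, from 250 bases before to 50 after the annotated start, were found for 5 of the 8 genes (Pi16, Dpt, Cd34, Gsn and Pcolce2). The build behind the deposited counts is not given in the sources used here. Both strands were searched for 6 motifs, and capitals mark the matches. TATAAA stood for the TATA box that positions the polymerase. GGGCGG stood for the GC box, the site of Sp1-type activators. GGAATG is the motif of TEAD factors, the partners of YAP. CAGCTG is an E-box of the kind bound by TCF21. TGANTCA was used for AP-1, and the CArG box of serum response factor was the last. The windows of Gsn (chr3:39008682-39008981, plus strand) and Cd34 (chr13:109008536-109008835, plus strand) are shown because both genes were called, that of Dpt (chr13:79656091-79656390, plus strand) because its difference just missed the threshold, and that of Pi16 (chr20:7377703-7378002, plus strand) because its groups overlapped.
Gsn: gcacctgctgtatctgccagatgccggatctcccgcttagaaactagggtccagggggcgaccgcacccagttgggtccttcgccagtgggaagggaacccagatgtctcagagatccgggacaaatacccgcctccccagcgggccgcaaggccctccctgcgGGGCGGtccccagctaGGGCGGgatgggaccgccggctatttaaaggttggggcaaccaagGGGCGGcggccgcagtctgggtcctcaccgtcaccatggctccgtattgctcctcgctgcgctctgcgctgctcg
Cd34: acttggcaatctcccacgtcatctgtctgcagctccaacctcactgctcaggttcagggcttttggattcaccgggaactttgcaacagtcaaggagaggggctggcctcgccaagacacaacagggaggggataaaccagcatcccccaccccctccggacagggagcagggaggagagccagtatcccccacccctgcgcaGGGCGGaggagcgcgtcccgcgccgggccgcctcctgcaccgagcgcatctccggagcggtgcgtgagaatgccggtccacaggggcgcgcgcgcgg
Dpt: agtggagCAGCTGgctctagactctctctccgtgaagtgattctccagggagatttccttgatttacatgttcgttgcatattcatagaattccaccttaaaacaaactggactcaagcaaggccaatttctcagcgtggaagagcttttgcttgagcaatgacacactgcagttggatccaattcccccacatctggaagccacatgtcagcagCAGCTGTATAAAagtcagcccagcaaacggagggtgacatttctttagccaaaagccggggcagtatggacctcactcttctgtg
Pi16: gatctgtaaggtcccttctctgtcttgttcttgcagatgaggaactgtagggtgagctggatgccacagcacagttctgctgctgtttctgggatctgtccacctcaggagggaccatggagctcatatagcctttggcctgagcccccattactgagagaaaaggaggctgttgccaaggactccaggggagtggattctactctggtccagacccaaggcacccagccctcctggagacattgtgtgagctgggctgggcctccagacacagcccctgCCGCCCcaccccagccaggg
Gsn and Cd34 had GC-rich windows, each with 66.3% G and C and 23 CpG dinucleotides. Among all 33469 windows of this length the medians were 51.7% and 7. The GC box occurred 3 times in the Gsn window and once in that of Cd34, and 33.1% of all windows hold at least 1. The Dpt window had 47.7% G and C and a TATA box that begins 29 bases before the start, a motif found in 14.2% of all windows, directly after a copy of CAGCTG. This E-box was matched in 15.1% of all windows, and in Dpt a further copy lies 243 bases before the start. The Pcolce2 window, not shown, was nearly as GC-rich at 65.7% with 16 CpG dinucleotides, and it held 2 GC boxes and 1 copy of CAGCTG although Pcolce2 was not called. The Pi16 window had 58.3% G and C but a single CpG, and its only match was a GC box after the start. None of the 5 windows held the TEAD motif, AP-1 or the CArG box, which occur in 14.2%, 7.33% and 1.64% of all windows, and this says only that these letters are not in these windows.

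Of the 8 marker genes, 4 were lower in BAPN-treated veins (Gsn, Cd34, Clec3b and Scara5) and none was higher. Dpt missed the threshold, and Thy1, Pi16 and Pcolce2 overlapped widely between the groups. The 4 calls stand against 9.25% of tested genes called lower, and the count of 0 higher calls in edgeR was also 0 in DESeq2. Because the genes were chosen with earlier results of these data known, the contrasts in this paragraph with all tested genes are descriptive only. At an unadjusted p below 0.05 edgeR counted 5 genes, all lower, as it did 35.8% of all tested genes in either direction, and DESeq2 called 5 (27.4% of all tested genes, 15.1% lower), with Dpt as the addition. The median log2 fold change of the 8 genes was -0.76 against 0.02 over all tested genes, and 6 of the 8 values were below 0, as were 48.4% of all. In the same 4 called genes every BAPN rat lay below every vehicle rat, which was seen in 11.9% of tested genes (24.7% in either direction and 12.7% higher).

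**Figure D1:**
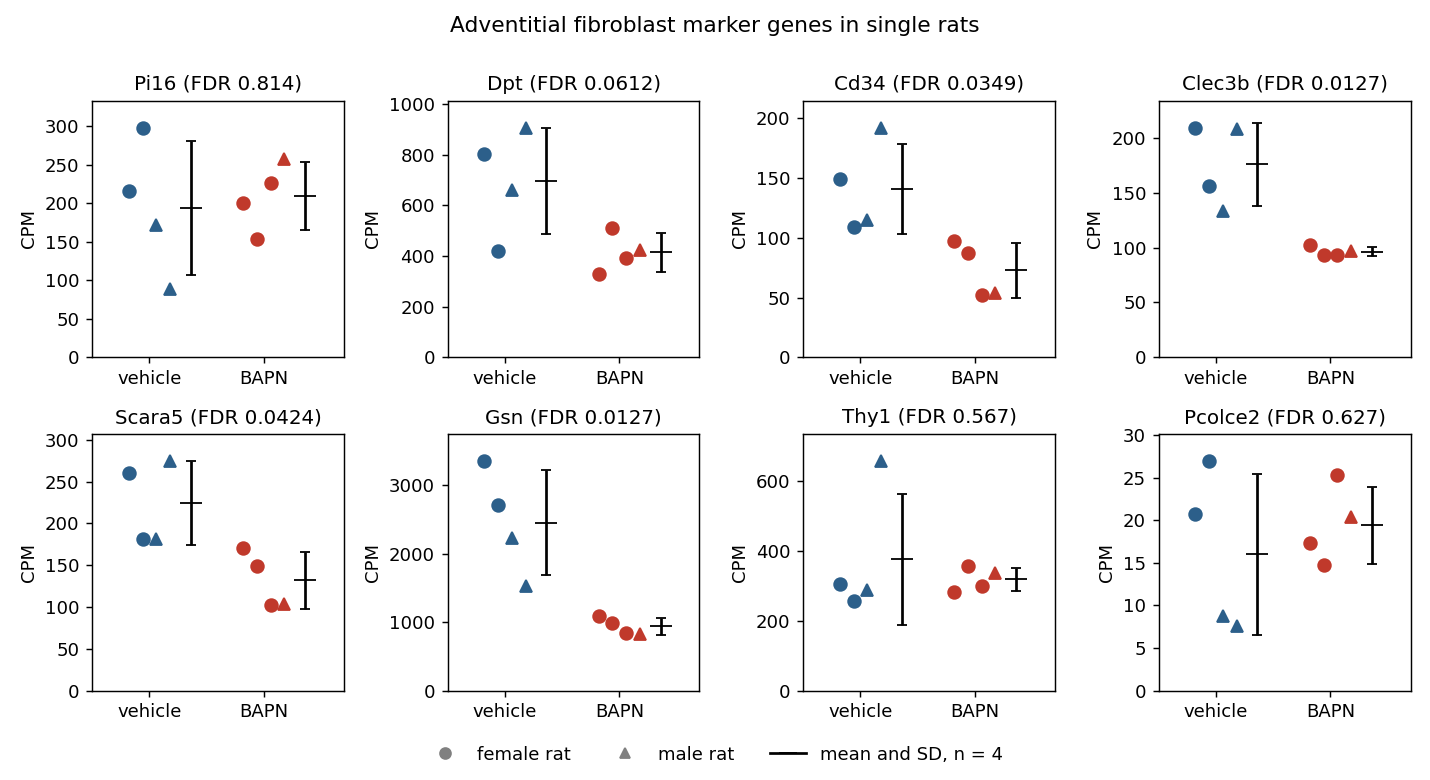
CPM of each marker gene (y axis, from 0) in 4 vehicle rats (blue) and 4 BAPN rats (red), with circles for females and triangles for males, and the mean and SD of each group in black. Gsn, Cd34, Clec3b and Scara5 show no overlap between the groups, and Thy1 has 1 vehicle rat at 655 CPM.

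The markers of the cell surface are Cd34, Thy1 and Scara5. Cd34 is a sialomucin of progenitor cells, endothelium and adventitial fibroblasts. Thy1 (CD90) is a glycolipid-anchored protein of fibroblasts that nerve and some cells of the T lineage also carry in rodents. Scara5 is a class A scavenger receptor that takes up ferritin. Cd34 (ENSRNOG00000045558) stood at 97.3, 87.3, 52.5 and 54.2 CPM in BAPN rats 1 to 4, against 149, 109, 115 and 192 CPM in the vehicle rats in the same order. The groups did not overlap, and the highest value was that of Vehicle 4. The mean was 72.8 ± 22.9 CPM under BAPN and 141 ± 38 CPM under vehicle, for a log2 fold change of -0.95 (standard error 0.25, edgeR FDR 0.0349). The call was kept in 3 of 8 fits that left out 1 rat, namely without BAPN 1, BAPN 2 or Vehicle 2, with an FDR up to 0.0908 (without BAPN 3), and log2 fold changes ran from -1.13 to -0.77.

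Scara5 (ENSRNOG00000014398) followed Cd34 closely. It stood at 171, 149, 102 and 104 CPM in BAPN rats 1 to 4, against 260, 181, 181 and 274 CPM in the vehicle rats in the same order. Again BAPN 3 and BAPN 4 were lowest and no BAPN rat reached the vehicle range, with BAPN 1 nearest to it. Means were 132 ± 34.2 and 224 ± 50 CPM, for a log2 fold change of -0.77 (standard error 0.22, edgeR FDR 0.0424). It was called in 2 of the 8 fits without 1 rat (without BAPN 1 or Vehicle 2), with an FDR up to 0.111 (without BAPN 3) and log2 fold changes from -0.92 to -0.65.

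Thy1 (ENSRNOG00000006604) did not differ beyond the spread between rats. BAPN 1 to 4 were at 282, 355, 298 and 335 CPM, and Vehicle 1 to 3 at 305, 256 and 287 CPM, within or just below the same range. Vehicle 4 alone was at 655 CPM, which carried the vehicle mean to 376 ± 187 CPM against 318 ± 33.4 CPM under BAPN. It gave a log2 fold change of -0.24 (standard error 0.29, edgeR FDR 0.567) with a 95% interval from -0.78 to 0.50 in limma-voom, and without Vehicle 4 it turned to 0.17 (FDR 0.436).

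Among the secreted proteins, Clec3b encodes tetranectin, which binds plasminogen, and had the smallest spread among BAPN rats. Clec3b (ENSRNOG00000004540) was at 102, 92.9, 93.4 and 96.5 CPM in BAPN 1 to 4, a coefficient of variation of 4.32%. Vehicle 1 to 4 were at 209, 156, 133 and 208 CPM, a coefficient of variation of 21.4%. All BAPN rats were below all vehicle rats, with means of 96.2 ± 4.15 and 176 ± 37.8 CPM, for a log2 fold change of -0.88 (standard error 0.16, edgeR FDR 0.0127). The call held in 8 of 8 fits that left out 1 rat, with log2 fold changes from -0.99 to -0.78.

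Dpt encodes dermatopontin, a matrix protein that binds decorin and collagen. Dpt (ENSRNOG00000002947) stood at 327, 512, 393 and 422 CPM in BAPN rats 1 to 4, against 803, 420, 661 and 905 CPM in the vehicle rats in the same order. Vehicle 2 lay among the BAPN rats and the other 3 vehicle rats were above all of them. The means of 414 ± 76.8 and 697 ± 210 CPM gave a log2 fold change of -0.75 (standard error 0.25), which edgeR did not call (FDR 0.0612) and DESeq2 did (FDR 0.0121). Without Vehicle 2 edgeR called it at -0.93 (FDR 0.0181), and with total counts as the only scaling it was just past the threshold (FDR 0.0474).

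Pi16, a secreted or membrane-bound protein of the CAP family that marks adventitial and other reservoir fibroblasts, overlapped entirely between the groups. Pi16 (ENSRNOG00000000525) stood at 201, 154, 227 and 258 CPM in BAPN rats 1 to 4, against 216, 298, 172 and 88.3 CPM in the vehicle rats in the same order. The vehicle rats spanned a 3.38-fold range on both sides of the BAPN rats, with Vehicle 2 highest and Vehicle 4 lowest. Means were 210 ± 44.3 and 194 ± 87.5 CPM, for a log2 fold change of 0.12 (standard error 0.36, edgeR FDR 0.814). Its 95% interval in limma-voom, from -0.58 to 1.02, left room for a change in either direction, and the estimate was below 0 without Vehicle 4 (-0.12) or BAPN 4 (-0.01).

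Pcolce2, an enhancer of the proteinase that trims procollagen, behaved like Pi16 across rats. Pcolce2 (ENSRNOG00000046848) stood at 17.3, 14.7, 25.3 and 20.4 CPM in BAPN rats 1 to 4, against 20.7, 26.9, 8.71 and 7.6 CPM in the vehicle rats in the same order. The vehicle females were within or above the BAPN range and both vehicle males were below it. Means were 19.4 ± 4.55 and 16 ± 9.41 CPM, for a log2 fold change of 0.28 (standard error 0.37, edgeR FDR 0.627, 95% interval in limma-voom from -0.35 to 1.29).

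Gsn had the largest change of the 8 genes. It encodes gelsolin, which severs and caps actin filaments inside cells and has a secreted form that clears actin from plasma. Gsn is abundant in fibroblasts and is also expressed by smooth muscle. Gsn (ENSRNOG00000018991) stood at 1091, 992, 843 and 832 CPM in BAPN rats 1 to 4, against 3349, 2718, 2225 and 1535 CPM in the vehicle rats in the same order. The groups were separate, and among vehicle rats both females were above both males. The mean was 939 ± 125 CPM under BAPN and 2457 ± 768 CPM under vehicle, 2.62-fold lower with BAPN (log2 fold change -1.39, standard error 0.24, edgeR FDR 0.0127). Only 1.89% of tested genes had a lower log2 fold change. The call held in 8 of 8 fits that left out 1 rat (log2 fold changes from -1.56 to -1.20), and among females alone, 3 BAPN rats against 2 vehicle rats, Gsn was the only marker called (-1.64, edgeR FDR 0.0462, against 0.762% of all tested genes called).

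**Figure D2:**
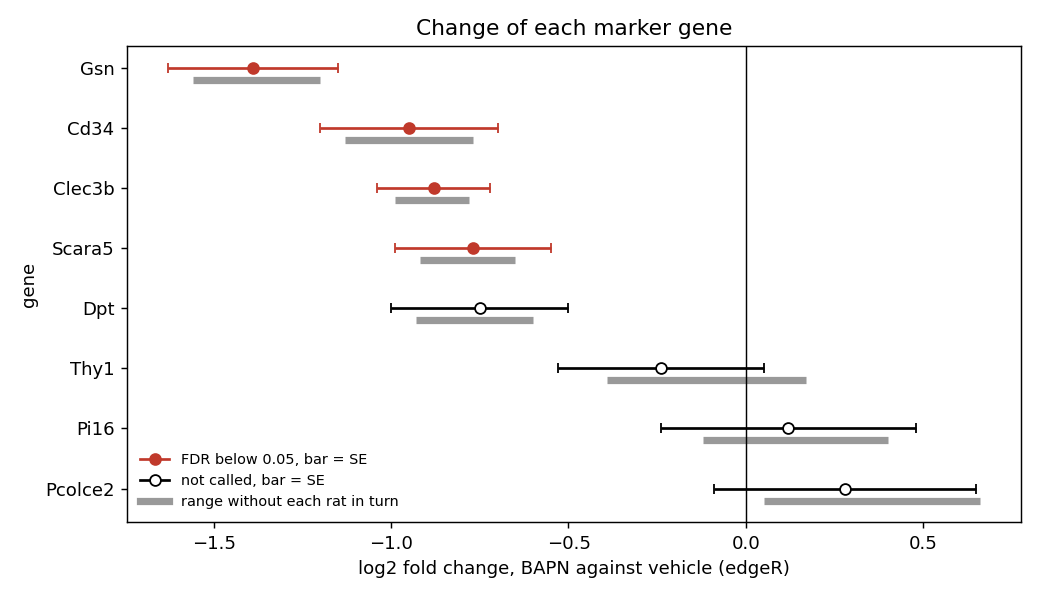
Log2 fold change of BAPN against vehicle (x axis) for each marker gene, with the standard error as a bar, red where the FDR was below 0.05, and in grey the range of the estimates when each rat was left out in turn. The estimates run from -1.39 for Gsn to 0.28 for Pcolce2, and the grey ranges of Thy1 and Pi16 cross 0.

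For single genes, an exact two-sided permutation test of log2 CPM over the 70 arrangements of 4 rats against 4 gave p = 0.0286 for Gsn, Cd34, Clec3b and Scara5, the smallest p that this design allows. The same exact test gave p = 0.0857 for Dpt, 0.4 for Pcolce2, 0.657 for Pi16 and 0.886 for Thy1. With counts thinned to the smallest library total, the same 4 genes were called by edgeR, with log2 fold changes of -0.95 for Cd34 and -0.88 for Clec3b. With sex as a covariate Gsn (FDR 0.0189) and Clec3b (FDR 0.0304) kept their calls in edgeR, and Cd34 (-0.98, FDR 0.0686) and Scara5 (-0.82, FDR 0.0692) did not, while 7.96% of all genes were called. The shares of all genes called were 16.5% with DESeq2 size factors, 14.3% with total counts as the scaling, 12.7% with edgeR's own filter, 7.54% with no filter, 16% at equal library totals and 4.76% with the replicate number as a block. They were 11.4%, 10.5%, 6.38% and 7.33% without BAPN 1, 2, 3 or 4 and 3.4%, 19%, 10.4% and 8.24% without Vehicle 1, 2, 3 or 4, and the markers called in these 8 fits numbered 4, 3, 2, 2 and 2, 5, 2, 2.

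The 8 genes did not share one profile across rats. Each gene's log2 CPM was centred on its own mean over the 8 rats, and pairs of genes were compared by the root-mean-square difference between these profiles. Cd34 and Scara5 were the nearest pair (0.13), followed by Clec3b and Scara5 (0.22), Cd34 and Clec3b (0.30), and by Pi16 and Pcolce2 and Dpt and Clec3b (0.31 each). Cd34 and Pcolce2 were farthest apart (1.10). Vehicle 4 shows the divide most plainly. In that rat Thy1, Cd34, Dpt and Scara5 were 0.91, 0.48, 0.43 and 0.32 above the vehicle mean on the log2 scale, each the highest value of its group. Pi16, Pcolce2 and Gsn were 1.00, 0.86 and 0.62 below the vehicle mean in the same rat, each the lowest of its group.

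**Figure D3:**
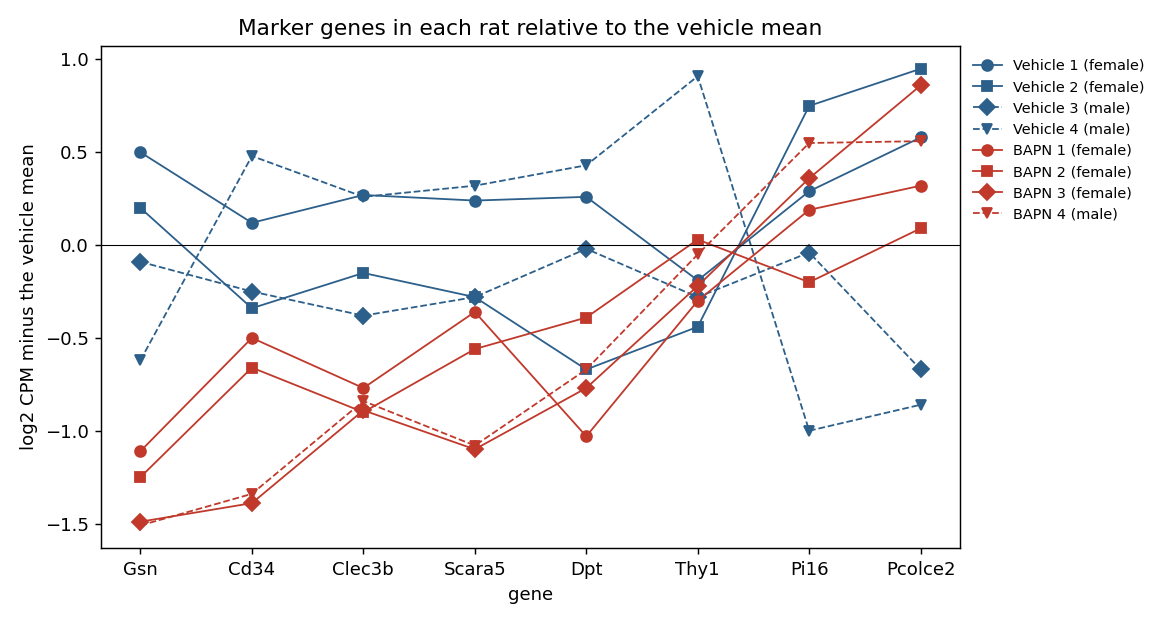
Log2 CPM of each marker gene minus its vehicle mean (y axis) in each rat, blue for vehicle and red for BAPN, with solid lines for females and broken lines for males. The red lines lie below the blue ones from Gsn to Scara5 and mix with them from Dpt to Pcolce2, and Vehicle 4 is the highest rat for Thy1 (0.91) and the lowest for Pi16 and Pcolce2 (-0.86).

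Whether the genes changed by different amounts was tested on the log2 ratio of 2 genes within each library, which does not depend on scaling or library size. Of 28 pairs, 2 separated the groups completely. The log2 ratio of Pi16 to Gsn was -2.44, -2.69, -1.89 and -1.69 in BAPN rats 1 to 4, against -3.96, -3.19, -3.69 and -4.12 in the vehicle rats in the same order. This was a difference of 1.56 between means of -2.18 ± 0.47 and -3.74 ± 0.41 (exact two-sided permutation p = 0.0286, adjusted over 28 pairs 0.229). The log2 ratio of Gsn to Pcolce2 was 5.98, 6.07, 5.06 and 5.35 with BAPN and 7.34, 6.66, 7.99 and 7.65 with vehicle, a difference of -1.80 (exact permutation p = 0.0286, adjusted 0.229). With 0.0286 as the smallest p, 2 such pairs cannot pass the adjustment over 28, and by this exact permutation test no pair did (2 of 28 at an unadjusted p below 0.05). When each rat was left out in turn the difference for Pi16 to Gsn stayed between 1.40 and 1.74, and that for Gsn to Pcolce2 between -2.05 and -1.60.

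**Figure D4:**
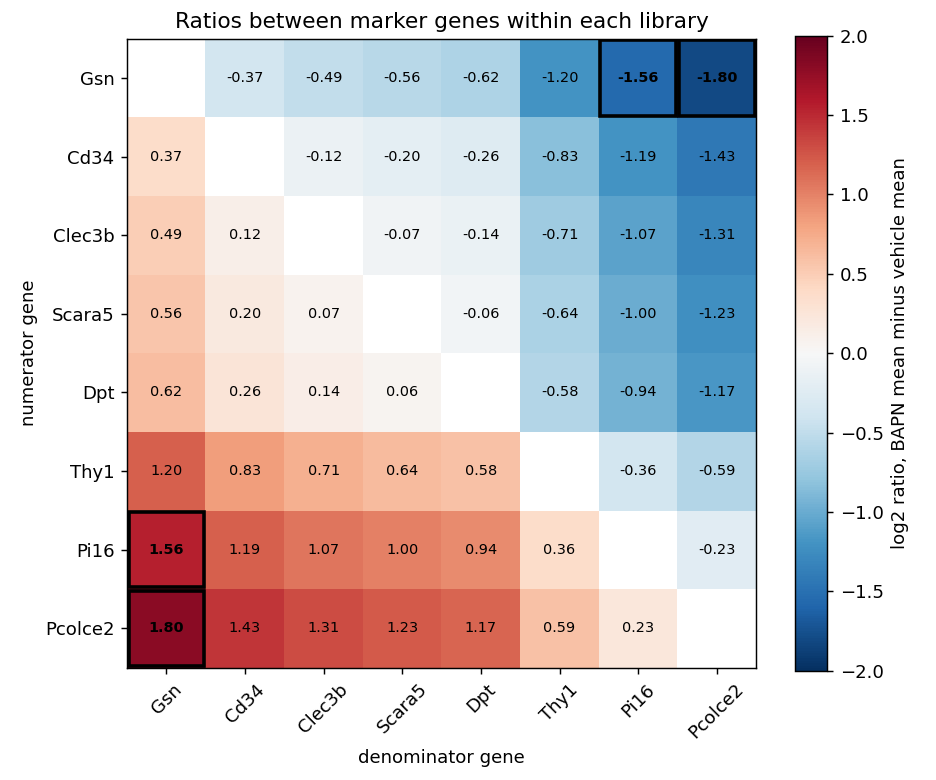
Difference between BAPN and vehicle in the mean log2 ratio of the gene in the row to the gene in the column, red where the ratio was higher with BAPN and blue where it was lower, with boxes around pairs whose groups did not overlap. The boxed pairs are Gsn with Pi16 (1.56 in size) and Gsn with Pcolce2 (1.80), and ratios among Cd34, Clec3b, Scara5 and Dpt differ by 0.26 or less.

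Ratios to genes of particular cell types were examined in the same way, over 11 ratios. Relative to Pdgfra, which was at 151 ± 34.1 CPM under BAPN and 235 ± 58.8 CPM under vehicle (log2 fold change -0.64, edgeR FDR 0.0699), the differences were -0.08 for Dpt, -0.15 for Scara5, -0.22 for Clec3b and -0.34 for Cd34. They were -0.71 for Gsn, 0.49 for Thy1, 0.85 for Pi16 and 1.09 for Pcolce2. The difference was -0.05 for Cd34 to the endothelial cadherin gene Cdh5 and 0.34 for Gsn to the smooth muscle myosin gene Myh11. Among females alone the sign turned for Gsn to Myh11 (-0.26) and for Cd34 (0.02), Scara5 (0.10) and Dpt (0.23) to Pdgfra, and Cd34 to Cdh5 was at -0.43. For Thy1 to the T cell marker gene Cd3e the log2 ratio was 4.76 ± 1.22 under BAPN and 6.26 ± 1.53 under vehicle. None of the 11 reached p below 0.05 in the exact permutation test, before or after adjustment (smallest p = 0.0857, for Gsn to Pdgfra, adjusted 0.314).

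Other transcripts of resting fibroblasts, from a list without collagens, proteoglycans or the 8 markers, moved in the same direction where they were called. Of 26 tested genes 8 were called lower and none higher by edgeR, against 9.25% and 7.5% of all tested genes, with a median log2 fold change of -0.61. This list and those below were also chosen with earlier results known, so their contrasts with all tested genes are descriptive only. DESeq2 called 12 of the 26, also all lower, against 15.1% of all tested genes called lower. Ebf2, an early B cell factor family regulator of mesenchymal and adipocyte progenitors, stood at 7.59, 9.29, 5.17 and 8.2 CPM in BAPN rats 1 to 4, against 26.8, 25.3, 23 and 25.4 CPM in the vehicle rats in the same order. These groups were far apart relative to their spread (log2 fold change -1.73, standard error 0.18, edgeR FDR 0.00291), and the call held in 8 of 8 fits without 1 rat. Prrx1, a homeobox factor of mesenchyme, was at 76.2 ± 22.9 and 182 ± 64.1 CPM (-1.26, standard error 0.30, edgeR FDR 0.0248, called in 5 of 8 such fits). Fbln1, a basement membrane and elastic fiber glycoprotein, was at 141 ± 41.6 and 302 ± 67.4 CPM (-1.09, standard error 0.23, edgeR FDR 0.0194, called in 6 of 8). Ackr3, a scavenging chemokine receptor, was at 59.4 ± 8.55 and 110 ± 26.8 CPM (-0.89, standard error 0.17, edgeR FDR 0.0164, called in 8 of 8). Gpx3, a secreted glutathione peroxidase, was at 765 ± 44.5 and 1243 ± 270 CPM (-0.70, edgeR FDR 0.0318, called in 1 of 8, with an FDR up to 0.0824), and Fbn1, the fibrillin of microfibrils, was not called (-0.70, edgeR FDR 0.173).

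Genes of activated fibroblasts and myofibroblasts did not pass the threshold. None of 15 was called by edgeR, against 16.8% of all tested genes, and 2 had an unadjusted p below 0.05, against 35.8%. DESeq2 called 1, the receptor gene Pdgfrb, against 27.4% of all tested genes. The median log2 fold change was -0.38 and 12 of the 15 values were below 0, with -1.12 for Lrrc15 (edgeR FDR 0.124) as the lowest. Acta2, the smooth muscle actin of myofibroblasts, had -0.75 (edgeR FDR 0.26) and Tagln, transgelin, -0.64 (edgeR FDR 0.217). Postn, the matricellular protein periostin, was at 2474 ± 953 CPM under BAPN and 2495 ± 1337 CPM under vehicle (log2 fold change -0.01, edgeR FDR 0.986). Fn1, fibronectin, was at 10491 ± 1299 and 10900 ± 3644 CPM (log2 fold change -0.06, edgeR FDR 0.905). The difference between this list and the resting markers was not tested.

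Among relatives of the 8 genes, 3 of 12 tested were called lower and none higher by edgeR (0 to 5 called when each rat was left out). The shares of all tested genes were 9.25% and 7.5%. The median log2 fold change of the relatives was -0.55, and DESeq2 called 5, against 27.4% of all tested genes. Pi15, a CAP-family relative of Pi16, had the lowest value (-1.83, no overlap between the groups), with an edgeR FDR of 0.0542 and a DESeq2 FDR of 0.00468. Podxl, podocalyxin, the nearest relative of Cd34, was at 38 ± 10.5 and 75.5 ± 23.1 CPM (log2 fold change -0.99, edgeR FDR 0.0323). Svil, supervillin of the gelsolin family, had -0.91 (edgeR FDR 0.0242), whereas Capg, the gelsolin-like capping protein of macrophages, had 0.54 (edgeR FDR 0.161). Scara3, a scavenger receptor related to Scara5, had -0.66 (edgeR FDR 0.0351). Pcolce, the relative of Pcolce2, had -0.54 (edgeR FDR 0.223), with 729 CPM in Vehicle 4 and at most 431 CPM in the other rats.

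The 8 markers are not exclusive to fibroblasts, and markers of other cells were counted as well. Of all tested genes edgeR called 9.25% lower and 7.5% higher, and 35.8% had an unadjusted p below 0.05. DESeq2 called 27.4% of all tested genes. Smooth muscle and pericyte genes were called lower in 7 of 9 (4 to 8 when each rat was left out, median -1.47), with summed levels between 764 and 1584 CPM under BAPN and between 2260 and 3198 CPM under vehicle. Log2 fold changes were -2.21 for Synpo2, -1.90 for Notch3, -1.60 for Myh11 and Cnn1 each and -0.68 for Des. Endothelial genes were called lower in 4 of 10 (1 to 6 when each rat was left out, median -0.68, sums of 548 to 752 and 940 to 1701 CPM), among them Vwf (-1.99), Tek (-1.24), Esam (-0.94) and Cldn5 (-0.55) but not Tie1 (-0.32, edgeR FDR 0.198), with Vwf at 768 CPM in Vehicle 1. The log2 fold change of Vwf ran from -2.29 to -1.13 when each rat was left out, and it was called in 3 of these 8 fits. T cell genes were called higher in 2 of 8 (Cd2 at 1.38 and Cd8a at 1.33, 1 to 2 calls when each rat was left out, median 1.17, sums of 58.9 to 148 and 32.6 to 71.2 CPM). DESeq2 called 8 of the smooth muscle and pericyte genes, 6 of the endothelial genes and 4 of the T cell genes. Adipocyte genes were called lower in 1 of 8 by edgeR (Plin1, -2.13, list median -1.36, 0 to 3 calls when each rat was left out), whereas 6 had an unadjusted p below 0.05 and DESeq2 called 6 (Adipoq, Plin1, Pck1, Lipe, Cidec and Plin4). Of the 8 values 7 were below 0, and the exception was Fabp4 (0.70, edgeR FDR 0.269, not called). The summed levels of the adipocyte genes were 1377 to 3102 and 700 to 2066 CPM, mostly of Fabp4. Macrophage genes were called in 0 of 10 by edgeR (1 at an unadjusted p below 0.05, and 1 by DESeq2, Lyz2), although Lyz2 was higher in every BAPN rat than in any vehicle rat. Their median was 0.31, and their sums were 29095 to 42140 and 6635 to 23793 CPM, of which Lyz2 alone made up 24109 to 38028 and 3861 to 19483 CPM. Of the remaining lists, 1 B cell gene was tested and called higher (Cd79b, 2.55, overlapping between the groups and called in 2 of 8 fits without 1 rat), none of 1 mesothelial, 6 Schwann cell and 2 skeletal muscle genes was called by edgeR (0, 1 and 1 at an unadjusted p below 0.05, and 0, 0 and 1 by DESeq2), and no keratinocyte gene reached the base mean for testing. No marker on these cell type lists was at 0 in every rat. The part of these cell types in the values of Cd34, Gsn and Thy1 was not tested.

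**Figure D5:**
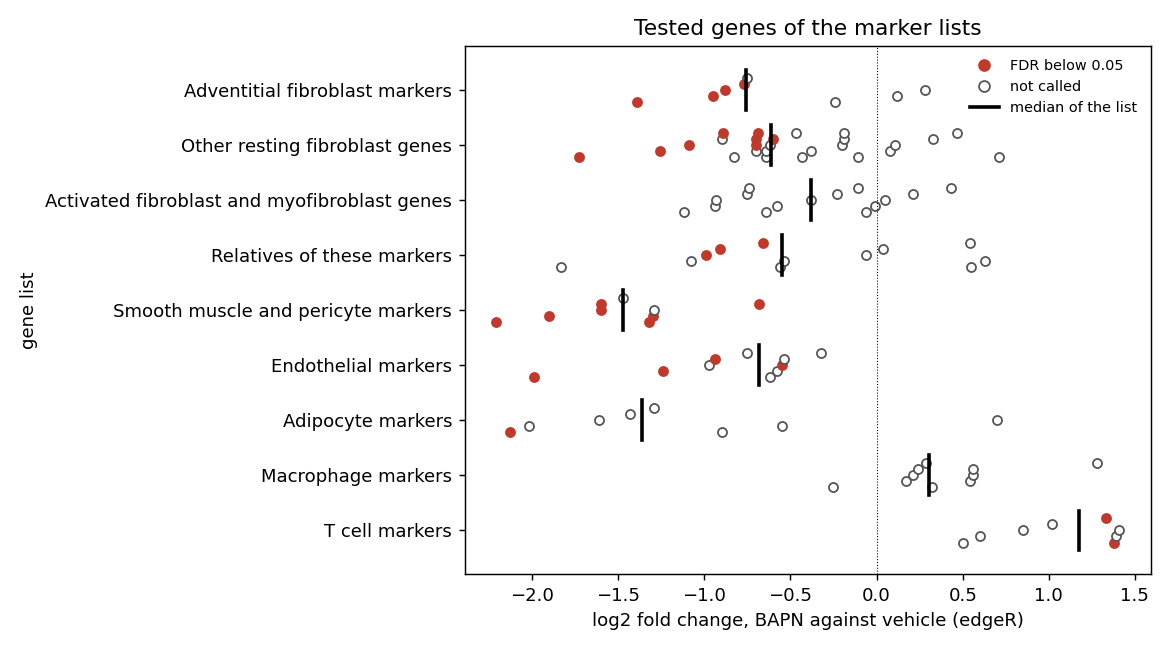
Log2 fold change of BAPN against vehicle (x axis) for the tested genes of each list (rows), red where the FDR was below 0.05, with the median of each list as a vertical bar. The medians are -0.76 for the adventitial fibroblast markers, -0.61 for other resting fibroblast genes, -0.38 for activated fibroblast genes and -1.47 for smooth muscle and pericyte genes.

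Genes with profiles most like the markers were sought among all tested genes with a symbol, by the same root-mean-square difference over the 8 rats. Nearest to the median profile of the 8 markers were Emp2 (0.0978), an epithelial membrane protein, and Zfp287, Qser1, Bdp1 and Sft2d2 (0.12 each). For single markers the nearest genes were Ptprf for Scara5 (0.0751), Peli2 for Cd34 (0.0798), Hvcn1 for Pi16 (0.086) and Hoxc10 for Dpt (0.13). They were Gask1b for Thy1 (0.14), Cdo1 for Gsn (0.16) and Car2 for Pcolce2 (0.19). Cdo1, cysteine dioxygenase, was at 11.9 ± 2.78 CPM under BAPN and 28.5 ± 9.6 CPM under vehicle (log2 fold change -1.26, edgeR FDR 0.0202). Hvcn1, a proton channel of phagocytes, was at 123 ± 30.3 and 109 ± 44.2 CPM (0.17, edgeR FDR 0.717).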

How the data were processed

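RNA of 8 rats was analysed. Per the labels and the study's methods, total RNA was depleted of ribosomal RNA, made into stranded libraries and processed with bcl2fastq 2.17, Trim Galore and STAR. The authors deposited whole-number counts of reads for each of 32623 rat Ensembl genes, without normalization. The counting tool, strand setting and genome build are not given in the sources used here, so reads shared by overlapping genes could not be checked.

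Testing was limited to a base mean of 100 or more (DESeq2 1.42.0 size factors), as in the study, leaving 11682 genes that held at least 99.5% of the counts of each library. edgeR 4.0.16 in R 4.3.3 was used with TMM scaling, the quasi-likelihood test and treatment as the only term, and FDR is adjusted over all tested genes. Standard errors and 95% intervals came from limma 3.58.1 (voom), whose estimate differs slightly from that of edgeR. CPM was computed from the deposited counts, and log2 CPM used a prior count of 2. Ratios used 0.5 added to each count. Steps were tested on simulated data with 200 of 11682 genes changed by 1.5 on the log2 scale, of which edgeR recovered 84.5%.

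The members and lists were chosen with earlier results of these data known. All 8 members are named with every rat. Of each other list the called genes (at most the 4 largest changes) and the 2 with the highest mean CPM were to be named, and those of the contextual lists are given mainly as counts. Pdgfrb, Lrrc15, Acta2, Tagln, Pi15, Cd248, Tcf21 and the adipocyte genes called by DESeq2 alone were named after their values were seen. Igfbp6, Serpinf1 and Abca8a, also called lower, are counted only. The gene nearest to Clec3b is not reported here. Pecam1, Tnxb and Myh1 were not analysed here, and Cdh5 replaced Pecam1 as the endothelial reference after the files were seen. The rats are separate animals. Within groups, every pair of libraries differed by more than sampling noise (lowest chi-square over its degrees of freedom 68.58). Alternatives were DESeq2, other scalings and filters, a sex term, the female rats only, a block for replicate number, thinning to equal totals, and omission of each rat.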

Additional observations from a re-analysis of the deposited data

Results flagged for a closer look

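Thy1 in Vehicle 4, at 655 CPM, stood apart from the other 3 vehicle rats, which lay between 256 and 305 CPM. The gap took a share of 0.877 of the group's range, above Dixon's 95% critical value for 4 samples. It was the only such value among the 16 combinations of gene and group. Chance alone gives such a value in about 1 of every 20 groups tested, so 1 among 16 is not unusual.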

How the results depend on the processing

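Of the 4 called markers, Gsn kept its direction and call in every alternative run and Clec3b in all but females alone (-0.93, FDR 0.0587). The number of called markers was 2 with sex as a covariate, 1 among females alone, 2 with the replicate number as a block, and 2 to 5 when each rat was left out (2 without BAPN 3, BAPN 4, Vehicle 1, Vehicle 3 or Vehicle 4). For the other resting fibroblast genes the numbers were 4, 1, 4 and 2 to 11 in the same order (2 without Vehicle 1, with 3, 4 and 5 on omitting BAPN 3, BAPN 4 and Vehicle 4). Over all tested genes they were 930, 89, 556 and 397 to 2215, and 3202 in DESeq2. Activated fibroblast genes were called once in DESeq2 and 0 to 2 times without 1 rat (1 without BAPN 2 and 2 without Vehicle 2). Scara5 was not called without a filter on low counts (FDR 0.0553). Among uncalled genes the direction turned for Pi16 among females alone (-0.41; -0.12 to 0.40 when each rat was left out), for Thy1 (0.15 among females; -0.39 to 0.17) and for Pcolce2 (-0.32 among females). With total counts as the only scaling, 69.7% of all calls were lower against 55.2%. Rats sharing a replicate number did not deviate together (correlations across genes from -0.265 to 0.269), so the block pairs them by number only, and of the 4 BAPN rats only BAPN 3 correlated best with the vehicle rat of its own number. The causes of these differences were not tested. The lowest count in a library was 159 for Pcolce2 and 32130 for Gsn, both in vehicle rats.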
